A study of Mus musculus with 6 samples.

Results

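The genes described here break down haem and recycle its iron. The named set held 10 genes: Hmox1, Blvra, Blvrb, Cd163, Spic, Slc11a1, Slc40a1, Fth1, Trf and Tfrc. A probe set, the group of short oligonucleotides that measures one transcript on the array, was counted as a member when its annotation gave exactly 1 of these symbols. This gave 17 of the 20392 probe sets that name a single gene, and they covered 9 of the 10 genes. Trf, which encodes the plasma iron carrier transferrin, was measured only by a probe set that also names Srprb, so it has no member probe set.

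Expression was measured in CD11c+ cells of the spleen, on 3 arrays from mice hypomorphic for Atg16L1 and 3 arrays from wild-type mice. Both genotypes were 8 weeks old, untreated and of C57BL/6J background. A hypomorphic allele keeps only part of its gene's function. Atg16L1 belongs to the autophagy complex that couples LC3 to membranes. The labels do not say which cells lack function (no cell-type-specific driver is named), nor that each replicate was its own animal, so p-values here reflect only how far these arrays differ from each other. CD11c, encoded by Itgax, is used to select dendritic cells with magnetic beads, and some splenic macrophages also carry it.

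Red pulp macrophages of the spleen engulf old red cells and free the haem of their haemoglobin. Haem oxygenase splits haem into iron, carbon monoxide and biliverdin, biliverdin reductases turn biliverdin into bilirubin, ferritin stores the iron, and ferroportin returns it to plasma, where transferrin carries it to cells that display the transferrin receptor. Haem releases the repressor BACH1 from its target genes, among them Hmox1 and Spic in mouse macrophages, and when iron is scarce the iron regulatory proteins stabilise Tfrc messenger RNA and hold back ferritin translation.

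The promoters of 7 of the 10 genes were in the RefSeq promoter table (GRCm38.p6), as 10 windows from 250 bases before to 50 bases after an annotated start. 3 are shown because they belong to genes that rose in the hypomorph and because 2 of them hold a searched motif. Capitals mark motif matches, on either strand, and the Spic window has none.
Blvra, chr2:127070407-127070706, plus strand: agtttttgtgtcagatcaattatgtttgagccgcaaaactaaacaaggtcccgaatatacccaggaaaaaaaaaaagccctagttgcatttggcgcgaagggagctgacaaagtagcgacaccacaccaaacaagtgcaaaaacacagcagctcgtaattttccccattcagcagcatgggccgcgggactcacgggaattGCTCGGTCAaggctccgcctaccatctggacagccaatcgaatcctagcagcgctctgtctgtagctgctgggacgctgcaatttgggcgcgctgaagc
Slc11a1, chr1:74374953-74375252, plus strand: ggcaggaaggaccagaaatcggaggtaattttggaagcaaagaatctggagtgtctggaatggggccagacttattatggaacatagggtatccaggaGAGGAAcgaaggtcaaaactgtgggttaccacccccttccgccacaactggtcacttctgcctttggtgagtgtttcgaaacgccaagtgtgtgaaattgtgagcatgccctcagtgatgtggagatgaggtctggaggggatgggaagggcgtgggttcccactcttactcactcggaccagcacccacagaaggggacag
Spic, chr10:88682974-88683273, minus strand: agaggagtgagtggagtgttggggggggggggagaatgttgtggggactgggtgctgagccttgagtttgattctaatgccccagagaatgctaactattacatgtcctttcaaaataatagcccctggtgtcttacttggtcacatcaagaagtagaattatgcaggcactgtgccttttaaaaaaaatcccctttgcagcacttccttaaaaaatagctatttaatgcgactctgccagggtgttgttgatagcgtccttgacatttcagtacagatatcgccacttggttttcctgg
The match in Blvra is the core TGACNNNGC of elements bound by NRF2 and BACH1 with small MAF proteins, read on the minus strand from 41 to 49 bases before the start. That core occurred in 1 of the 10 member windows and in 12.4% of all 32851 windows. The match in Slc11a1 is GAGGAA, the core bound by the ETS factors PU.1 and SPI-C, which occurred in 1 of 10 member windows and 28.3% of all windows. The core TGAGTCA of MAF and AP-1 sites (5.20% of all windows) and the E-box CACGTG of TFEB and USF (7.15%) were in 0 of the 10. The iron-responsive element loop CAGTG with its bulged C was searched only in the 50 bases after each annotated start. It was in 0 of the 10 there (1.58% of all windows). Elements further along a transcript lay outside this search, so it does not show that a member lacks the element. No 2 of these motifs overlapped in the member windows. The promoters of Hmox1, Slc40a1 and Trf were not analysed here.

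Atg16l1 itself stood at 6.13, 5.84 and 6.11 on the log2 scale in the hypomorph, against 7.05, 7.11 and 7.04 in wild type (log2 change -1.04, SE 0.099, adjusted p = 0.00139). Array medians lay between 5.66 and 5.72. Between the genotypes 3610 of 20392 probe sets passed an adjusted p under 0.05 in limma, 17.7% of those tested. Of all probe sets 9.96% were called higher and 7.74% lower in the hypomorph. The groups also differed outside the genes: the mean of 24 poly-A spike-in probe sets was 7.58 to 7.90 in the hypomorph, against 8.95 to 9.96 in wild type. The 18 hybridization control probe sets averaged 10.29 to 10.40 in the hypomorph, against 11.08 to 11.65 in wild type, and 18S ribosomal RNA 8.71 to 8.83, against 9.30 to 9.67 in wild type. The 3' minus 5' difference of beta-actin, a sign of RNA quality, was 0.69 to 0.77 in the hypomorph, against 0.94 to 1.02 in wild type. The part of these measures in the results below was not tested. A fit with the spike-in mean as a covariate was made, but that mean did not overlap between the genotypes. The fit therefore cannot tell the spike-in level from genotype. The 10 measured red pulp macrophage markers averaged 11.38 to 11.43 in the hypomorph, against 9.37 to 9.88 in wild type, and 10 of 10 rose. They were Adgre1, Vcam1, Cd5l, C1qa, C1qb, C1qc, Vsig4, Mrc1, Csf1r and Cd68. How specific they are to red pulp macrophages among other macrophages was not tested. Of the 11 measured dendritic cell markers, 1 rose (Xcr1) and 2 fell (Itgax and Zbtb46). An unadjusted p under 0.05 was found for 8 of 11, beside 6750 of all 20392 probe sets. The counts of risen and fallen markers were 0 and 0 without hypomorph replicate 2 or 3, and 3 and 5 with trend and robust fitting. Itgax, the gene of the selected surface protein, stood at 9.94 ± 0.07 in the hypomorph and 10.32 ± 0.13 in wild type (SD, n = 3 each, log2 change -0.37, adjusted p = 0.0351). The calls of Itgax and Xcr1 were lost without any 1 hypomorph array and without either of wild-type replicates 1 and 3. That of Zbtb46 was lost without hypomorph replicate 2 or 3 (limma adjusted p from 0.0504 to 0.0530). It was made by 1 of the 3 Zbtb46 probe sets. The class II MHC gene H2-Ab1 stood at 13.38 ± 0.06 in the hypomorph and 13.30 ± 0.04 in wild type, but B cells and macrophages express it too, and the B cell gene Ms4a1 stood at 10.99 ± 0.27 in the hypomorph and 11.70 ± 0.19 in wild type. Among other cells, 2 of 4 marginal zone macrophage genes rose, 2 of 7 neutrophil genes rose, 1 of 4 monocyte genes and 3 of 5 B cell genes fell, and 0 of 4 T cell genes passed (1 unadjusted). Without 1 array these counts were 1 to 2, 1 to 3, 1 to 2, 1 to 4 and 0 to 1, where leaving out hypomorph replicate 1, hypomorph replicate 3 or wild-type replicate 3 left 1 B cell gene. In such bulk samples a change in the number of cells of a type and a change in RNA per cell cannot be told apart.

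Of the 17 member probe sets, 12 rose in the hypomorph and 0 fell, against 9.96% of all probe sets called higher. When only the 10196 probe sets above the median level were fitted, 2150 were called higher. Of the 12 members among them, 11 were. Outside Tfrc all 11 probe sets, of 8 genes, rose, with log2 changes from 0.65 to 2.45 and a median of 1.48, where the median over all tested probe sets was -0.04. In 13 of the 17 every hypomorph array stood above every wild-type array, an order found for 19.0% of all probe sets. Taken by gene, with the probe set of highest mean, 8 of 9 rose, against 9.66% of all genes. Tfrc was the gene that did not. With the spike-in mean as a covariate 0 of 17 passed (6 at an unadjusted p under 0.05). Of all 20392, 0 passed (1934 unadjusted). The changes of the 11 probe sets outside Tfrc were then 0.25 to 2.72. Hmox1 changed by 1.05 instead of 2.45, Slc40a1 by 0.59 and 0.96 instead of 1.61 and 1.89. Fth1 changed by 0.35 and 0.25 instead of 0.86 and 0.65. Blvra (0.93), Blvrb (1.29), Slc11a1 (1.15) and Spic (1.32 and 1.39) were less reduced. Cd163 alone was larger, at 2.72 instead of 1.96. The spike-in mean did not overlap between the genotypes, so this fit could not tell it from genotype. In the same arrays the poly-A spike-in mean was 1.79 lower on the log2 scale and the red pulp macrophage marker mean 1.73 higher, and the part of either in these changes was not tested.

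**Figure D1:**
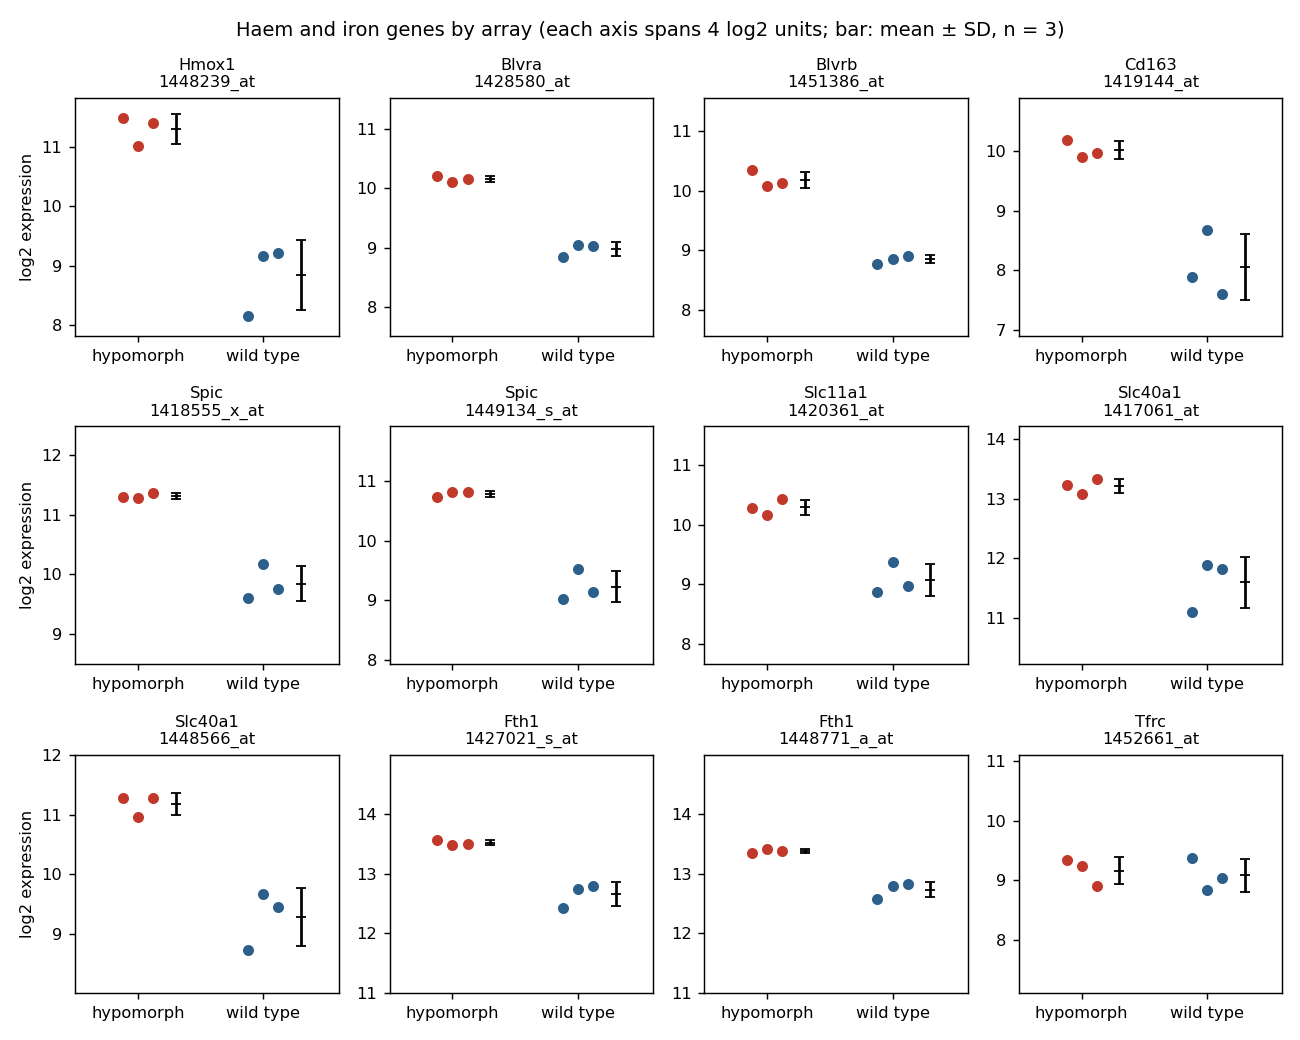
Deposited log2 expression of 12 member probe sets (y axis) on the 3 hypomorph arrays (red, left) and the 3 wild-type arrays (blue, right), with mean ± SD beside the points. Each panel spans 4 log2 units at its own level. The hypomorph arrays lie above all wild-type arrays in every panel except that of Tfrc 1452661_at.

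Hmox1 encodes haem oxygenase 1, the inducible enzyme that opens the haem ring. Its probe set read 11.48, 11.01 and 11.41 in hypomorph replicates 1 to 3, against 8.16, 9.16 and 9.22 in wild type. The lowest hypomorph array was 1.79 above the highest wild-type array. The log2 change was 2.45 (SE 0.29, 95% interval 1.78 to 3.12, adjusted p = 0.00275), a 5.46-fold difference, and it ranked 9 among all 20392 probe sets by log2 change. Wild-type replicate 1, whose title carries another run prefix than the other 5 arrays, stood lowest of its group, whose arrays spanned 1.05, and without it the change was 2.11 (adjusted p = 0.00113).

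Blvra encodes biliverdin reductase A, which makes bilirubin from biliverdin. It read 10.20, 10.10 and 10.15 in the hypomorph, against 8.84, 9.04 and 9.04 in wild type. The groups lay 1.06 apart at their nearest arrays, and the log2 change was 1.18 (SE 0.088, 2.26-fold, adjusted p = 0.00102). Blvrb encodes the second reductase, which also acts on flavins. It read 10.34, 10.09 and 10.13 in the hypomorph, against 8.78, 8.85 and 8.91 in wild type. Its 3 wild-type arrays spanned 0.13, and the log2 change was 1.34 (SE 0.095, 2.53-fold, adjusted p = 0.00095). These 2 reductases had the smallest p-values among the members, ranking 33 (Blvrb) and 43 (Blvra) of 20392.

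Cd163 encodes the receptor through which macrophages take up haemoglobin bound to haptoglobin. It read 10.18, 9.90 and 9.97 in the hypomorph, against 7.89, 8.68 and 7.61 in wild type. The wild-type arrays spanned 1.07 without reaching the hypomorph arrays, and the log2 change was 1.96 (SE 0.26, 3.88-fold, adjusted p = 0.00414). Slc11a1 encodes NRAMP1, a metal transporter of the phagosome membrane, and C57BL/6 mice are known to carry a loss-of-function variant of its protein. It read 10.28, 10.17 and 10.43 in the hypomorph, against 8.88, 9.38 and 8.97 in wild type, with a log2 change of 1.22 (SE 0.15, 2.33-fold, adjusted p = 0.00294).

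Spic encodes SPI-C, an ETS transcription factor that red pulp macrophages of mice need for their development. Both of its probe sets moved alike. The probe set 1418555_x_at read 11.30, 11.29 and 11.37 in the hypomorph, against 9.60, 10.17 and 9.75 in wild type (log2 change 1.48, SE 0.15, adjusted p = 0.00156). The other, 1449134_s_at, read 10.73, 10.82 and 10.82 in the hypomorph, against 9.02, 9.52 and 9.14 in wild type (log2 change 1.56, SE 0.13, adjusted p = 0.00122). The hypomorph arrays spanned 0.083 and 0.092, while in wild type replicate 2 was the highest of the 3 for both. Their suffixes mark probes that can match other sequences too, so Spic levels carry that uncertainty.

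Slc40a1 encodes ferroportin, the only known iron exporter of mammalian cells. Its brighter probe set, 1417061_at, read 13.24, 13.08 and 13.33 in the hypomorph, against 11.11, 11.88 and 11.82 in wild type. The log2 change of this probe set was 1.61 (SE 0.20, 3.06-fold, adjusted p = 0.00363). The dimmer one, 1448566_at, read 11.28, 10.97 and 11.29 in the hypomorph, against 8.73, 9.67 and 9.45 in wild type (log2 change 1.89, SE 0.24, 3.72-fold, adjusted p = 0.00343). Both put wild-type replicate 1 lowest and hypomorph replicate 2 lowest of its group, and their intervals, 1.13 to 2.10 and 1.34 to 2.45, overlap.

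Fth1 encodes the ferritin heavy chain, which oxidises iron for storage. The probe set 1427021_s_at read 13.56, 13.49 and 13.50 in the hypomorph, against 12.43, 12.74 and 12.79 in wild type (log2 change 0.86, SE 0.11, 1.82-fold, adjusted p = 0.00385). The probe set 1448771_a_at read 13.34, 13.41 and 13.38 in the hypomorph, against 12.58, 12.79 and 12.82 in wild type (log2 change 0.65, SE 0.090, 1.57-fold, adjusted p = 0.00507). These were the smallest changes among the risen members outside Tfrc, on probe sets brighter than 99.7% of all, near the top of the range of the deposited values, which reached 14.33. The mouse genome holds processed pseudogenes of Fth1, and probes that match several transcripts may read them as well.

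Tfrc encodes the transferrin receptor, through which cells take up transferrin-bound iron. Its brightest probe set, 1452661_at, read 9.34, 9.23 and 8.91 in the hypomorph, against 9.37, 8.83 and 9.03 in wild type. The groups overlapped, with a log2 change of 0.08 (95% interval -0.31 to 0.47, adjusted p = 0.778). Of the other 5 Tfrc probe sets, all dimmer than the median probe set, 1 passed. It was a 3' control probe set of the array, which read 5.18, 5.15 and 4.94 in the hypomorph, against 4.56, 4.67 and 4.86 in wild type (log2 change 0.39, SE 0.11, adjusted p = 0.0489). The 3' minus 5' difference of the Tfrc control probe sets was 1.963 to 2.275 in the hypomorph, against 1.599 to 1.807 in wild type. That difference holds the called 3' probe set itself, while the dim 5' one averaged 2.95 in the hypomorph and 2.98 in wild type. It is thus not separate from that call, and for beta-actin the same difference was lower in the hypomorph. The part of RNA quality in that call was not tested. The call was made in 3 of 13 alternative settings, and it was lost without any 1 array other than wild-type replicate 3 (adjusted p up to 0.158). The remaining 4 had log2 changes from -0.03 to 0.39 and adjusted p-values from 0.131 to 0.902. Among them 1422966_a_at had no overlap between the groups, at 5.71, 5.56 and 5.51 in the hypomorph, against 5.43, 4.97 and 5.36 in wild type.

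**Figure D2:**
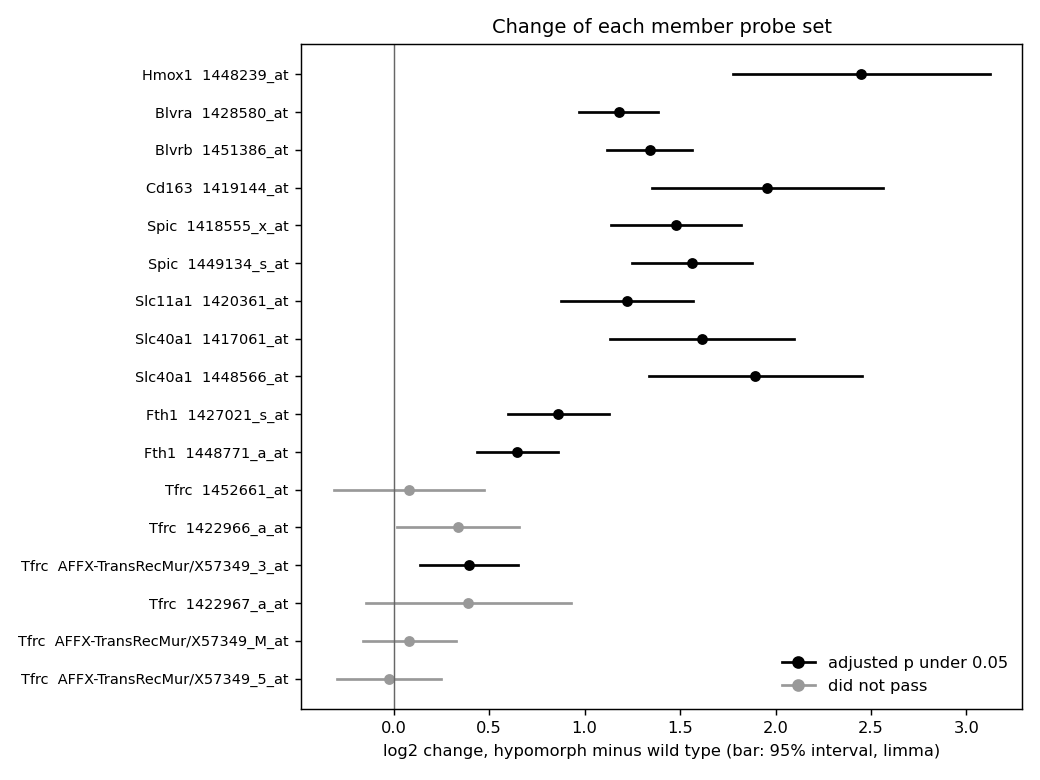
Log2 change, hypomorph minus wild type, of the 17 member probe sets (x axis) with 95% intervals from limma, 3 arrays per group. Black marks an adjusted p under 0.05 over all 20392 probe sets and grey the rest. The 11 probe sets outside Tfrc lie from 0.65 to 2.45, and 5 of the 6 Tfrc probe sets are grey.

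The level of Tfrc varied within each genotype. By 1452661_at the arrays ran, from high to low, wild-type replicate 1, hypomorph replicates 1 and 2, wild-type replicate 3, hypomorph replicate 3 and wild-type replicate 2. Erythroid precursors, which need iron for haemoglobin, display much transferrin receptor, and proliferating cells do so too. The mean of 7 measured erythroid markers was 6.14, 6.13 and 4.89 in hypomorph replicates 1 to 3, against 5.60, 4.51 and 4.91 in wild type. Within each genotype the arrays with the highest and the lowest erythroid mean were also those with the highest and the lowest Tfrc. Of the 7, 1 rose, Epor (log2 change 0.68, adjusted p = 0.00489). Epor read 6.50, 6.68 and 6.50 in hypomorph replicates 1 to 3, against 5.76, 5.89 and 5.98 in wild type. Its order of arrays within each genotype differed from that of the erythroid mean. Without hypomorph replicate 3, 2 rose and 6 of 7 had an unadjusted p under 0.05, against 1 with all arrays. Without that array 5275 of all 20392 probe sets had such a p. Without wild-type replicate 2, 1 rose and 1 fell. The defining Slc4a1, the red cell anion exchanger, was at 8.08 ± 1.54 in the hypomorph and 6.75 ± 1.38 in wild type (SD, n = 3 each), while the haemoglobin gene Hba-a1 was dim at 3.01 ± 0.05 in the hypomorph and 3.14 ± 0.40 in wild type by its own probe set. The mean of 9 proliferation genes was 8.45, 8.39 and 8.31 in the hypomorph, against 8.81, 8.14 and 8.74 in wild type, and 0 of 9 passed in limma (1 at an unadjusted p under 0.05), while 7 fell without wild-type replicate 2. Mki67, a marker of cycling cells, had a log2 change of -0.27 (adjusted p = 0.451). Like the erythroid mean, the proliferation mean was highest and lowest within each genotype on the arrays with the highest and the lowest Tfrc. The part of either cell state in the Tfrc levels was not tested.

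**Figure D3:**
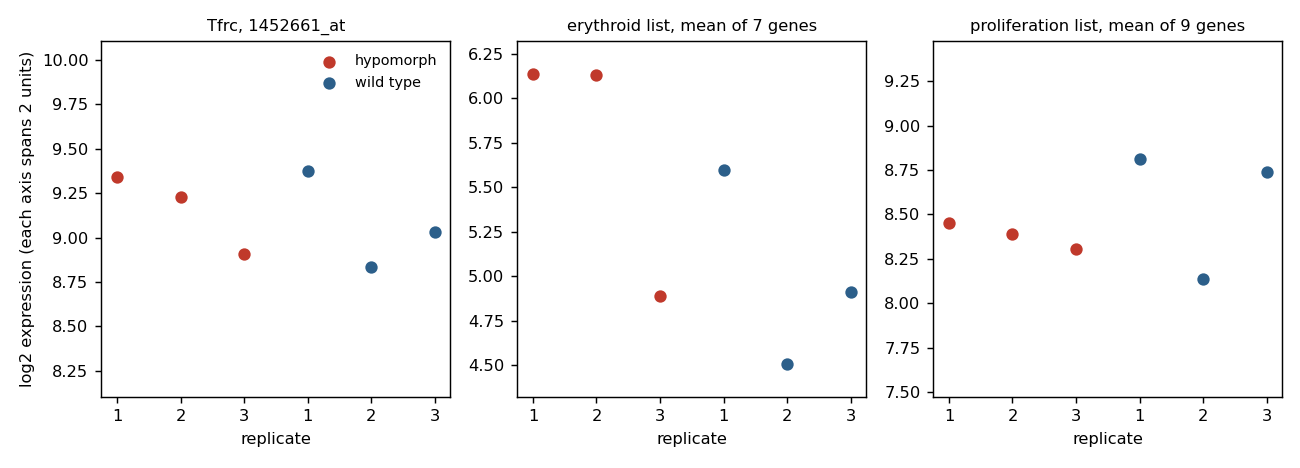
Log2 expression (y axis, each spanning 2 units) of Tfrc by its brightest probe set, and the means of 7 erythroid and 9 proliferation genes, on each hypomorph (red, left) and wild-type array (blue, right). Hypomorph replicate 3 and wild-type replicate 2 are the lowest of their groups in all 3 panels.

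Among themselves the risen members differed in size and in spread. Wild-type replicate 1 was the lowest wild-type array for 10 of the 11 probe sets outside Tfrc, and hypomorph replicate 2 the lowest hypomorph array for 9 of 11. The SD was wider in wild type for 10 of 11, with a median of 0.12 in the hypomorph and 0.27 in wild type, beside 0.091 in the hypomorph and 0.14 in wild type over all tested probe sets. The change of Hmox1 was 0.72 above that of the red pulp marker mean, with all hypomorph arrays above all wild-type arrays after the marker mean was subtracted on each array. Cd163 (0.23), Slc40a1 (-0.11 and 0.17) and Spic 1449134_s_at (-0.17) overlapped after that subtraction. Spic 1418555_x_at (-0.25), Blvrb (-0.39), Slc11a1 (-0.51), Blvra (-0.55) and Fth1 (-0.87 and -1.08) lay below the markers, so these rose less than the marker mean did. These differences are descriptions and were not tested.

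**Figure D4:**
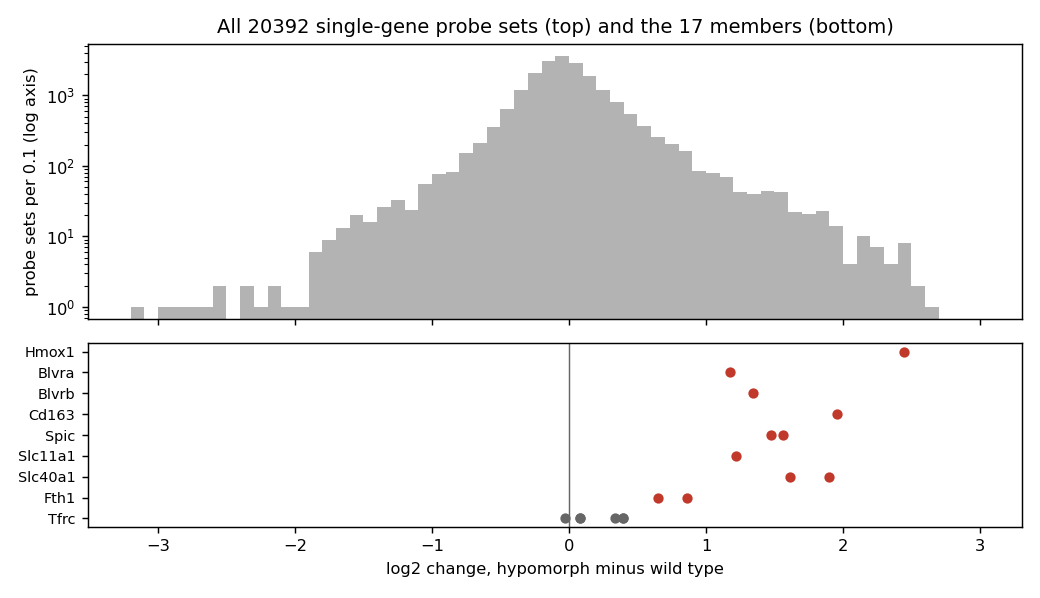
Log2 change, hypomorph minus wild type, of all 20392 single-gene probe sets (top, counts on a log axis) and of the 17 member probe sets by gene (bottom). Most probe sets lie near 0, while the members outside Tfrc lie between 0.65 and 2.45.

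Other genes rose, fell or did not pass, by list. The lists cover haem and iron handling, and also NRF2 targets outside haem and genes for red cell and apoptotic cell uptake. Of 87 genes in 9 lists, 72 had a probe set of their own. Of these, 13 rose and 6 fell, against 9.66% and 8.33% of all genes, and their median log2 change was 0.05 beside -0.05 over all genes. The NRF2 target list gave 2 and the uptake list 3 of the risen genes, and both gave 0 of the fallen genes. Leaving out 1 array gave 11 to 17 risen and 3 to 7 fallen genes.

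Genes that bring haem into the cytosol included Slc48a1, which encodes the phagolysosomal haem transporter HRG1. It stood at 8.88 ± 0.20 in the hypomorph and 7.63 ± 0.13 in wild type (SD, n = 3 each), a log2 change of 1.24 (adjusted p = 0.00163). Lrp1, whose product takes up haem bound to haemopexin, stood at 8.85 ± 0.08 in the hypomorph and 7.63 ± 0.29 in wild type (log2 change 1.22, adjusted p = 0.00294). Flvcr2, of a family that includes the haem exporter FLVCR1, fell (log2 change -0.48, adjusted p = 0.00772). In all, 2 of 10 genes of this list rose and 1 fell. That made 4 risen genes without wild-type replicate 2 and 3 without wild-type replicate 1. Of the 8 haem synthesis genes 0 passed in limma (1 at an unadjusted p under 0.05), and 0 had groups apart. Of all 12394 genes, 2293 had every hypomorph array above all wild-type arrays and 2788 every one below. Alas1, the first enzyme of the pathway outside red cells, had a log2 change of 0.22 (adjusted p = 0.223, and 0.0470 without wild-type replicate 2). Urod, a later enzyme, had a log2 change of 0.31 (adjusted p = 0.257, and 0.0391 without hypomorph replicate 3). Without that array 3 of 8 had an unadjusted p under 0.05, beside 5275 of all 20392 probe sets.

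Among regulators of haem oxygenase and its paralogue, 2 of 9 rose and 1 fell. Hmox2, the constitutive haem oxygenase, rose less than Hmox1, at 9.78 ± 0.06 in the hypomorph and 9.17 ± 0.04 in wild type (log2 change 0.61, adjusted p = 0.00344). Messenger levels of the haem sensor Bach1 (log2 change 0.23, adjusted p = 0.277) and of Nfe2l2, which encodes NRF2 (0.24, adjusted p = 0.325), did not pass. The small MAF gene Maff rose (log2 change 0.99, adjusted p = 0.0122), and Bach2, a relative of Bach1 known from lymphocytes, fell, at 6.85 ± 0.28 in the hypomorph and 7.85 ± 0.10 in wild type (SD, n = 3 each, adjusted p = 0.00622). The B cell list that fell in part in the same arrays had a median of -0.63, and its part in the change of Bach2 was not tested. Of 7 NRF2 targets outside haem 2 rose: Gclm, a subunit of the enzyme that starts glutathione synthesis (log2 change 0.91, adjusted p = 0.00244), and Txnrd1, thioredoxin reductase (0.86, adjusted p = 0.0145). Of the 3 Txnrd1 probe sets only the brightest passed. The calls of Maff and Txnrd1 were lost without hypomorph replicate 1 or 3 (adjusted p from 0.0502 to 0.0628).

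In ferritin turnover, Ncoa4, which encodes the receptor that delivers ferritin to autophagosomes, was the gene of 4 that rose (log2 change 1.21, adjusted p = 0.00123, and both of its probe sets passed). The iron chaperone genes Pcbp1 and Pcbp2 had log2 changes of -0.10 and -0.13 and did not pass. Of 13 genes for iron uptake, reduction and export, Slc39a8 rose. It encodes the metal importer ZIP8 and stood at 6.46 ± 0.33 in the hypomorph and 4.71 ± 0.22 in wild type (log2 change 1.75, adjusted p = 0.00187), a call made by 1 of its 2 probe sets. A second gene of this list, Lcn2, passed as higher without wild-type replicate 1 or 2 (log2 change 0.79 and adjusted p = 0.09998 with all arrays), and Heph passed as lower without wild-type replicate 3 (-0.37, adjusted p = 0.0803 with all arrays). Mcoln1, a lysosomal channel that passes iron, had a log2 change of -0.04 (adjusted p = 0.866).

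Iron sensing genes went both ways, with 2 of 6 higher and 3 lower. Aco1, which encodes iron regulatory protein 1, stood at 9.48 ± 0.09 in the hypomorph and 8.38 ± 0.28 in wild type (log2 change 1.11, adjusted p = 0.00415). Ireb2, which encodes iron regulatory protein 2, stood at 7.67 ± 0.01 in the hypomorph and 8.18 ± 0.03 in wild type (log2 change -0.51, adjusted p = 0.00487). Both proteins bind iron-responsive elements, and their genes differed in opposite directions between these genotypes. Hfe, the haemochromatosis gene, rose (log2 change 0.94, adjusted p = 0.00109), and Bmp6, a ligand that induces hepcidin in liver, fell (-0.93, adjusted p = 0.0282), as did Neo1, which binds the hepcidin co-receptor hemojuvelin (-0.42, adjusted p = 0.0179). The calls of Bmp6 and Neo1 were lost without any 1 hypomorph array, and that of Bmp6 without wild-type replicate 3 (adjusted p from 0.0573 to 0.0985). Of 9 genes for mitochondrial iron, Slc25a28, a mitoferrin gene, fell (log2 change -0.42, adjusted p = 0.0184) and 0 rose, a call lost without hypomorph replicate 2 or 3.

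Of 6 genes for red cell and apoptotic cell uptake 3 rose. Axl and Mertk, receptor kinases for cells that expose phosphatidylserine, changed by 2.14 (adjusted p = 0.00261) and 1.27 (adjusted p = 0.00284), with Axl called by 1 of its 2 probe sets. Sirpa, whose product reads the CD47 signal of red cells, rose by 0.96 (adjusted p = 0.00107, all 3 probe sets). Stab1 (log2 change -0.76, adjusted p = 0.171), Trem2 (-0.08) and Stab2 (-0.01) did not pass. Without wild-type replicate 2 Stab1 passed as lower (adjusted p = 0.0487). Macrophages express Axl, Mertk and Sirpa, and the red pulp macrophage marker mean stood 1.73 higher in the same arrays. The part of macrophage content in these changes was not tested.

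**Figure D5:**
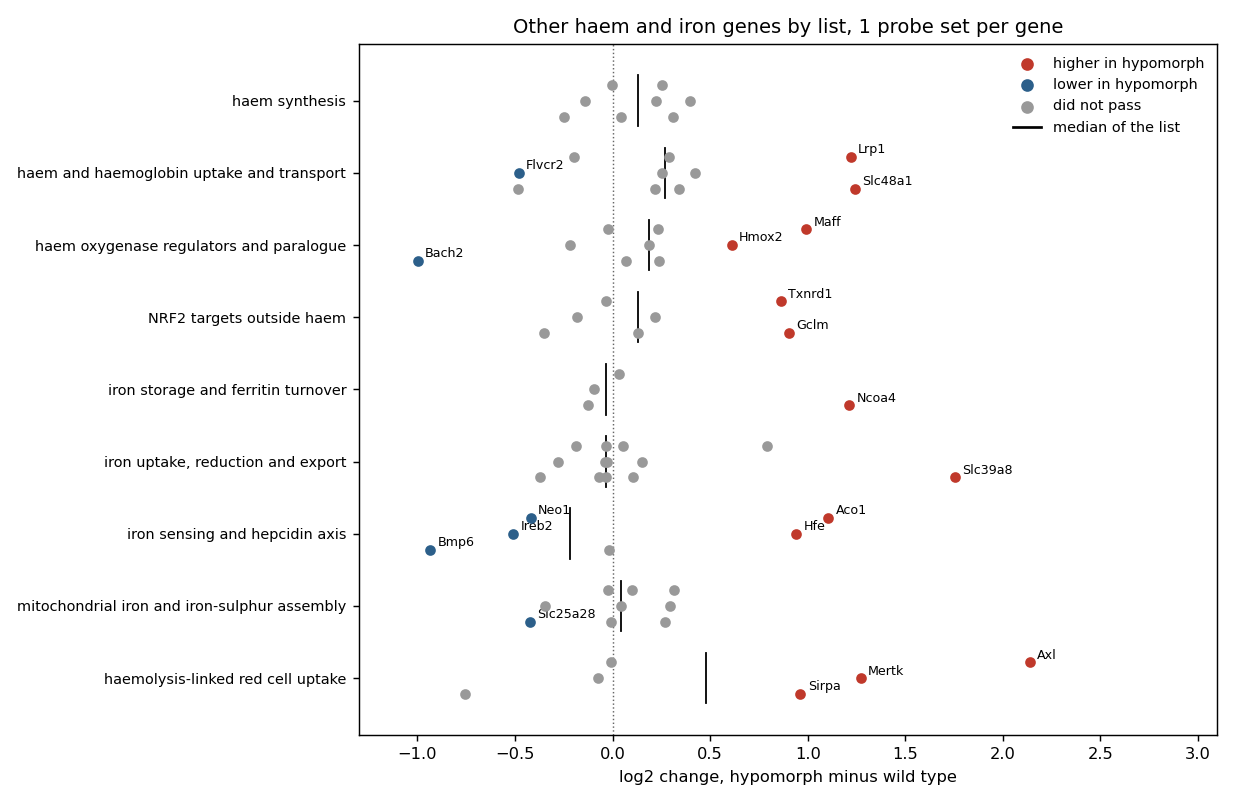
Log2 change, hypomorph minus wild type (x axis), of 72 other genes in 9 lists, with 1 point per gene by its probe set of highest mean. The lists cover haem and iron handling, NRF2 targets outside haem, and red cell and apoptotic cell uptake. Red genes rose and blue genes fell at an adjusted p under 0.05, grey genes did not pass, and black bars mark list medians. The risen genes reach from 0.61 for Hmox2 to 2.14 for Axl, and most grey points lie near 0.

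Outside the members, the genes whose pattern over the 6 arrays was most like that of Hmox1 were Hacd3, Gfpt1, Tm9sf2, Pim1 and Hilpda, among probe sets brighter than the median. Their Pearson correlations with Hmox1 were from 0.9982 to 0.9989, over arrays that share the genotype difference. A correlation does not measure size. In the order named, their log2 changes were 0.52, 0.44, 0.58, 1.66 and 1.26, against 2.45 for Hmox1. For Hacd3 and Tm9sf2 the probe set was not the brightest of the gene. Pim1, a kinase gene, stood at 11.10 ± 0.09 in the hypomorph and 9.45 ± 0.39 in wild type (SD, n = 3 each), with the same low array in each group as Hmox1.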

How the data were processed

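Each probe set had a log2 value on each of 6 arrays, hybridised as Affymetrix MOE430A arrays of labelled cDNA from CD11c+ spleen cells. Per the submitters' processing notes, the authors made the deposited log2 values with Affymetrix Power Tools. Its version and the background and summarization steps were not given in the sources used here. A log base of 2 was inferred from the range, 1.96 to 14.33, and normalization between arrays from the close array medians. Of 22690 probe sets, 1 had no value, and 691 naming several genes and 1555 naming none were left out. Genes came from the platform annotation, and 0 symbols needed updating. Wild-type replicate 3 carries the name of another array version in its title but holds the same probe sets. Of 64 control probe sets, 13 name 1 mouse gene and were kept, 3 of them for Tfrc, with the fit without them chosen after seeing the data.

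Hypomorph and wild type were tested in R 4.3.3 by limma 3.58.1 (two-sided, lmFit then eBayes) on all 6 arrays, with Benjamini-Hochberg adjustment over all 20392 probe sets and a threshold of 0.05. Genes are said to have risen or fallen past it. Intervals are unadjusted 95% intervals of the same fit. Python 3.11.15 with pandas 2.3.3 and matplotlib 3.10.9 made tables and plots. The fit was tested on simulated data. Members, lists, motifs and tests were chosen with earlier results of these data known. Named genes are all members, Atg16l1, up to 4 called genes of smallest p per pathway list and up to 3 per marker list, a few genes fixed by name, and the 5 genes most like Hmox1. Slc4a1, Hba-a1, H2-Ab1, Pcbp1, Pcbp2, Bmp6, Lcn2, Heph, Urod, Stab1, Stab2 and Trem2 were added after their values were seen. So were the names of the red pulp macrophage markers. Ftl1 and other list genes without a probe set of their own were not analysed here. Alternatives were quantile normalization, median centring, array weights, eBayes with trend and robust options, a replicate block, the spike-in mean as a covariate, filters on dim probe sets, 1 value per gene and leaving out each array.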

Additional observations from a re-analysis of the deposited data

Results flagged for a closer look

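The probe set that names both Trf and Srprb lies outside the comparisons because it names 2 genes, and each hypomorph array stood above every wild-type array. It read 11.80, 11.70 and 11.71 in the hypomorph, against 8.96, 9.85 and 9.65 in wild type, a log2 change of 2.25. The lowest hypomorph array was 1.85 above the highest wild-type array. Trf encodes transferrin and Srprb a subunit of the receptor for the signal recognition particle, and the array cannot tell which of the 2 transcripts gave the signal. Wild-type replicate 1 was again the lowest wild-type array. No groups of 4 or more arrays exist, so outlying arrays were not searched for.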

How the results depend on the processing

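The 11 member probe sets outside Tfrc were called higher in all 162 values that 15 alternatives gave for them, with an adjusted p of at most 0.0324, and in none once the poly-A spike-in mean was a covariate. In that fit the count was 0 for the members, 0 for the pathway lists and 0 of 20392 probe sets in all. The median SE of these 11 was 3.27 times as large. Their changes were smaller than in the main fit, except that of Cd163. The spike-in mean did not overlap between the genotypes, so the loss of calls cannot be laid to it rather than to genotype. Leaving out 1 array gave 11 to 12 called members, 15 to 24 called pathway genes and 1279 to 3546 called probe sets, with 1618, 1431 and 1279 without hypomorph replicate 1, 2 and 3. With 1 value per gene the total was 2260 (highest probe set) or 2245 (mean), since fewer tests were made. With the replicate block it was 2217, with 11 members called, and the deviations of same-numbered arrays correlated at 0.16, 0.019 and 0.10, so the numbers were not taken as pairs. Changes of Tfrc near 0 turned sign: 1452661_at was -0.043 without wild-type replicate 2 and -0.011 without hypomorph replicate 1. The 5' control probe set was 0.038 after quantile normalization, 0.0087 without wild-type replicate 3 and 0.063 without hypomorph replicate 3, and the middle one was -0.017 without hypomorph replicate 1. Leaving out 1 array gave -0.043 to 0.23 for 1452661_at, -0.14 to 0.063 for the 5' and -0.017 to 0.14 for the middle control probe set. None of these Tfrc values passed. The 3 arrays per group limit precision. The 5' and middle control probe sets of Tfrc averaged 2.97 and 3.39 over all arrays, toward the lower end of the scale. Tfrc 1422967_a_at averaged 3.81, while the 3' control probe set (4.89) and 1422966_a_at (5.42) stood higher.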
